A study of Mus musculus with 15 samples.

Results

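The 9 genes described here encode voltage-dependent anion channels (Vdac1, Vdac2, Vdac3), parts of the mitochondrial calcium uniporter (Mcu, Micu2, Smdt1) and 3 further mitochondrial membrane or matrix proteins (Letm1, Ppif, Tspo). They were chosen by symbol, as mitochondrial channel and calcium genes set beside CLIC4, an intracellular chloride channel protein found in mitochondria. Earlier results of these data were known when the 9 genes and the gene lists below were chosen. All 9 were among the 55341 gene symbols of the count table, and all 9 were among the 13085 genes with enough counts to test. The RNA came from Clic4 knockout (KO) and wild-type (WT) 6DT1 cells, a mammary cancer line of FVB/N1 mice, each either given 1 µM hydrogen peroxide (H2O2) for 24 h or left untreated. The groups held 3 H2O2-treated KO libraries, 4 untreated KO libraries, 4 H2O2-treated WT libraries and 4 untreated WT libraries. The labels do not give the number of KO clones, nor whether replicates were separate cultures, so genotype and clone cannot be told apart. The p-values set group differences against the spread between these libraries, and may not cover the spread between cultures or clones.

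Mitochondria take up calcium in steps. VDAC proteins are β-barrel pores of the outer membrane that let ions and metabolites such as ATP pass, and calcium then crosses the inner membrane through the uniporter, whose pore is formed by MCU. MICU2 is an EF-hand protein that helps hold this pore closed at low calcium, and the small membrane protein EMRE, encoded by Smdt1, belongs to the same complex. LETM1 is an inner-membrane protein of cation and proton exchange, cyclophilin D (Ppif) is a matrix prolyl isomerase that promotes opening of the permeability transition pore, and TSPO is an outer-membrane protein that binds cholesterol and porphyrins.

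Libraries held between 12.31 and 16.03 M counts. Expression is given as CPM, counts per M after scaling of the libraries by the trimmed mean of M-values (TMM). Clic4 stood at 68.39 to 75.91 CPM in H2O2-treated KO, 64.16 to 75.05 CPM in untreated KO, 313.0 to 316.8 CPM in H2O2-treated WT and 315.9 to 326.7 CPM in untreated WT libraries, so its mRNA was reduced in KO cells and not absent. One untreated WT library, replicate 9, is marked as knockout in its genotype field and as WT in its title, and it held 326.7 CPM of Clic4. That library also stood apart by 28.1 CPM of immune transcripts summed without Cd68, against 0.137 to 1.15 CPM in the other 14 libraries. Of 8 epithelial markers only Krt8, Krt18 and Krt19 exceeded 1 CPM, and Epcam and Cdh1 were near 0 in every group. Between untreated KO and WT cells Krt18 had a log2 fold change of −1.12 and Krt19 of 1.52, Krt8 one of 0.01, and the fibroblast marker Pdgfra one of −0.83, and their part in the results below was not tested. Of 9 immune markers, Cd68 alone was over 1 CPM in most groups (mean 270.0 CPM in H2O2-treated KO, 288.7 in untreated KO, 404.2 in H2O2-treated WT and 400.8 in untreated WT), with Ptprc and Lyz2 over 1 CPM on average only in untreated WT, where replicate 9 held 4.52 and 19.4 CPM.

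Promoter sequence is shown for Ppif, which had the largest difference of the 9 genes between genotypes, and for Letm1, which was lower in KO cells, as 1 example of each direction. Each window is 300 bases long, around the start that RefSeq gives (GRCm38.p6), in the sense of the gene. The gene starts in GENCODE on mm10, 25694154 for Ppif and 33782817 for Letm1, lie inside these windows. Capitals mark the GC box (GGGCGG or CCGCCC) and the CCAAT box (CCAAT or ATTGG). The Ppif window is chr14:25693920-25694219 on the plus strand and the Letm1 window chr5:33782668-33782967 on the minus strand.
Ppif: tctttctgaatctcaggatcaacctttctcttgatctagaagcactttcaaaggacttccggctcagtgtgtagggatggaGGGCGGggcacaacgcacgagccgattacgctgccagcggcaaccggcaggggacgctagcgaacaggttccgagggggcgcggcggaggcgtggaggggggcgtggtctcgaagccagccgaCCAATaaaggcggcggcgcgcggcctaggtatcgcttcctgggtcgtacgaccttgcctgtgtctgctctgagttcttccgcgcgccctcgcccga
Letm1: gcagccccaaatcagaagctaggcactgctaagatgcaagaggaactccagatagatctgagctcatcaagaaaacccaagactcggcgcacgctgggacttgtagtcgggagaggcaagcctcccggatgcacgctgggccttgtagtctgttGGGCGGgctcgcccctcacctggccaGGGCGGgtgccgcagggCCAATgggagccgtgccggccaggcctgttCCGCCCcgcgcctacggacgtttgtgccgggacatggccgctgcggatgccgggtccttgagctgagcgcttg
The Ppif window held 1 GC box and 1 CCAAT box at 63.0% GC, and the Letm1 window 3 GC boxes and 1 CCAAT box at 64.7% GC, where the median window of all genes had 52.7% GC. Of the 9 genes, 6 had an entry, with 7 windows in all. A GC box was present in 5 of these 7 windows and in 35.7% of all 32851 windows, and a CCAAT box in 3 of 7 and 37.4%. Neither the E-box CACGTG, found in 7.15% of all windows, nor the palindromic NRF1 site, found in 0.971%, was in any of the 7. Searches covered both strands, and the GC box and CCAAT box share no letters in either printed window.

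Per unit of transcript length, these genes spanned a wide range of abundance. On the deposited RPKM scale (reads per kilobase per M counts), Vdac2 was highest with a median of 165.0 over the 15 libraries (146.5 to 177.3). Vdac1 had 108.8 (103.3 to 120.3), Tspo 105.9 (83.61 to 127.4) and Vdac3 37.41 (32.78 to 42.58). The uniporter genes were lower, with Micu2 at 25.7 (23.8 to 29.9), Smdt1 at 17.2 (15.08 to 20.77) and Mcu at 15.34 (13.31 to 17.14). Ppif had 8.131 (6.651 to 9.965) and Letm1 5.82 (4.771 to 6.249). Neighbours in this order did not overlap within any group, except for the pairs Vdac1 and Tspo and Smdt1 and Mcu. Vdac1 was above Tspo in 3 of 3 H2O2-treated and 4 of 4 untreated KO libraries, with no overlap, whereas Tspo was above Vdac1 in 4 of 4 H2O2-treated WT libraries, without overlap, and in 4 of 4 untreated WT libraries, with overlapping ranges. Smdt1 was above Mcu without overlap in both KO groups, and the 2 genes overlapped in both WT groups.

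Loss of Clic4 went with small differences in both directions. The test was the quasi-likelihood test of edgeR with Benjamini-Hochberg adjustment over all 13085 genes, which gives every adjusted p below, and genes under 0.05 are called higher or lower. In untreated cells 4 of the 9 genes were higher in KO (Vdac1, Micu2, Smdt1, Ppif), 4 were lower (Vdac2, Vdac3, Letm1, Tspo), and Mcu did not pass. Over all genes tested, 66.8% were called, 33.9% higher and 32.9% lower. With H2O2 in both genotypes, 3 were higher (Vdac1, Micu2, Ppif), 5 were lower (Vdac2, Vdac3, Mcu, Letm1, Tspo), and Smdt1 did not pass, where 65.4% of all genes were called, 33% higher and 32.4% lower. The median log2 fold change of the 9 was −0.09 without and −0.11 with H2O2, and that of all tested genes was 0 in both. The sign of all 9 differences was the same with and without H2O2. When the test asked for a change over 1.2-fold, 1 of the 9 passed in untreated cells (Ppif, adjusted p 0.00362), where 36.8% of all genes did, and 0 of 9 passed with H2O2, where 37% did. In bulk RNA a change per cell and a change in the mix of cells cannot be told apart.

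The VDAC genes are the outer-membrane pores. Vdac1, the isoform best known for contact with the endoplasmic reticulum calcium channel, was higher in KO cells. It had 347.2, 350.8, 330.4 and 343.5 CPM in untreated KO, against 306.5, 292.6, 300.2 and 300.2 CPM in untreated WT libraries. Every KO library was above every WT library, and the log2 fold change was 0.19 (SE 0.0337, adjusted p 1.18e-05), a 1.14-fold difference. With H2O2, Vdac1 had 334.3, 329.7 and 313.6 CPM in KO, against 305.9, 300.4, 313.7 and 302.5 CPM in WT libraries. There the lowest KO and the highest WT library met, and the log2 fold change was 0.09 (SE 0.0364, adjusted p 0.027). That call was lost without KO replicate 5 (adjusted p 0.141) or 7 (0.0845) and without WT replicate 14 (0.0723) or 16 (0.0581), as well as with upper-quartile scaling (0.082) and with no low-count filter (0.103).

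Vdac2, which binds and restrains the apoptosis effector BAK, was slightly lower in KO cells. It had 333.1, 346.1, 317.3 and 349.4 CPM in untreated KO, against 350.2, 348.5, 376.6 and 362.0 CPM in untreated WT libraries. The groups overlapped by a single KO library, replicate 4, above the lowest WT library, and the log2 fold change was −0.09 (SE 0.0368, adjusted p 0.0248). The call was lost without KO replicate 1 (adjusted p 0.0566) or 3 (0.0776) and without WT replicate 11 (0.0663). With H2O2, Vdac2 had 340.7, 331.3 and 319.5 CPM in KO, against 364.0, 362.9, 362.2 and 350.9 CPM in WT libraries. All KO libraries were below all WT libraries here, and the log2 fold change was −0.12 (SE 0.04, adjusted p 0.00838), or adjusted p 0.0635 without KO replicate 8.

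Vdac3, the least abundant VDAC isoform per length, was lower in KO cells. It had 141.3, 156.1, 138.1 and 143.0 CPM in untreated KO, against 173.6, 171.5, 175.9 and 164.1 CPM in untreated WT libraries. No libraries overlapped, and the log2 fold change was −0.24 (SE 0.0394, adjusted p 4.01e-06). With H2O2, Vdac3 had 145.4, 150.0 and 141.5 CPM in KO, against 162.8, 154.5, 157.5 and 154.3 CPM in WT libraries. These groups did not overlap either, with a log2 fold change of −0.11 (SE 0.0429, adjusted p 0.0256). The H2O2 call was lost without KO replicate 5 (adjusted p 0.0619) or 8 (0.117) and without WT replicate 13 (0.0778).

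Vdac1 went up where the other 2 isoforms went down, and Vdac1 made up more of the VDAC transcripts in KO cells. Summed VDAC RPKM averaged 301.2 ± 9.089 in H2O2-treated KO, 307.6 ± 10.71 in untreated KO, 316.1 ± 4.815 in H2O2-treated WT and 316.6 ± 6.362 in untreated WT cells (SD over libraries; n = 3, 4, 4 and 4). Vdac1 took 37.48 ± 0.1149% of this sum in H2O2-treated KO and 38.39 ± 0.6016% in untreated KO cells, against 34.09 ± 0.4627% in H2O2-treated WT and 33.34 ± 0.7397% in untreated WT cells. The Vdac2 share was 50.97 ± 0.3099% and 50.46 ± 0.6704% in those KO groups, against 53.82 ± 0.4534% and 53.54 ± 0.9149% in the WT groups. The Vdac3 share was 11.55 ± 0.2775% and 11.15 ± 0.3737% in the KO groups, against 12.09 ± 0.2118% and 13.13 ± 0.3921% in the WT groups. Shares of 1 sum depend on each other, and they are given as a description.

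**Figure D1:**
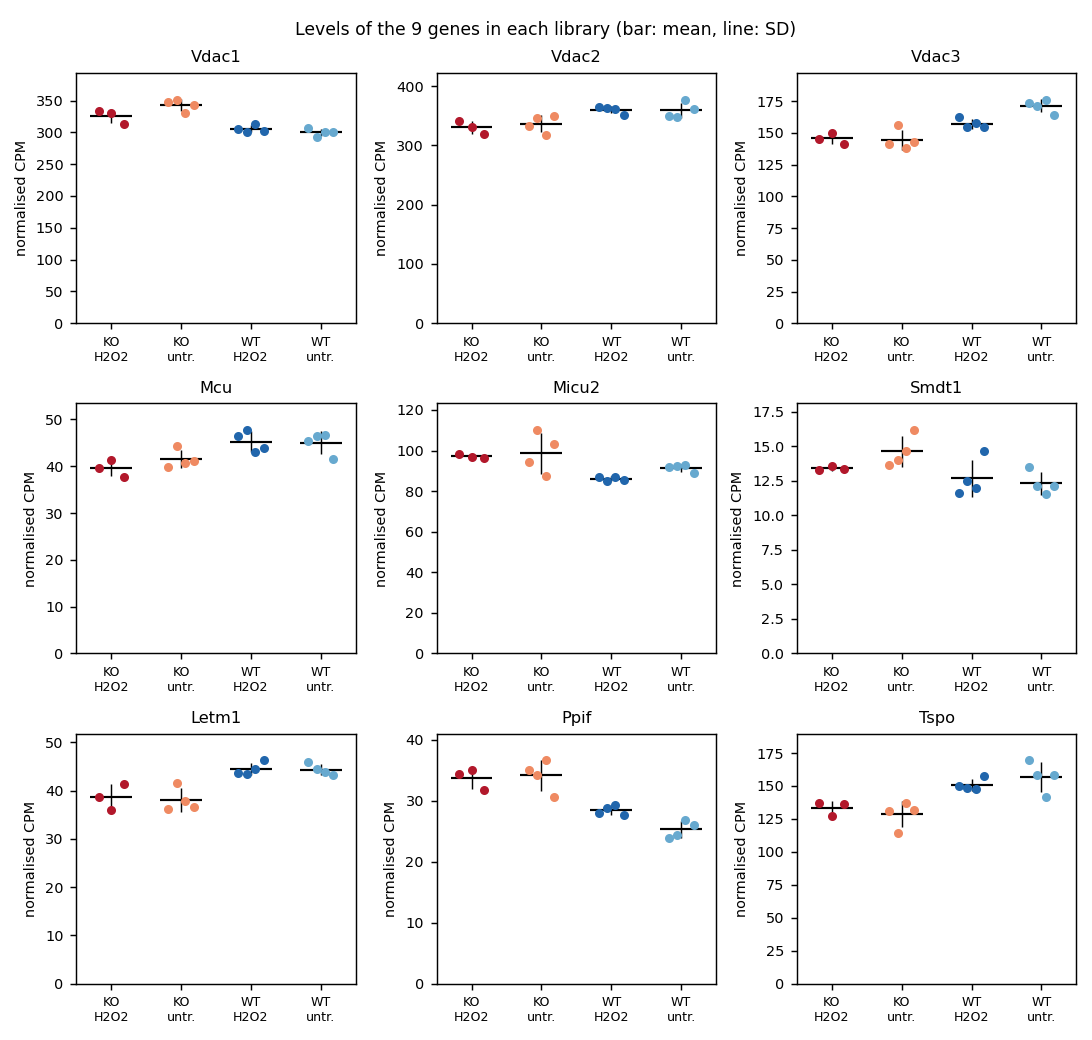
Normalised expression (CPM, y axis, 1 panel per gene with its own scale) of the 9 genes in each library (points), by group from left to right: H2O2-treated KO (n = 3), untreated KO, H2O2-treated WT and untreated WT (n = 4 each). Bars mark the mean and SD; Ppif averages 34.12 CPM in untreated KO and 25.27 CPM in untreated WT libraries, and Tspo 128.7 against 156.8 CPM.

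At the uniporter, the pore gene and its regulators did not move together. Mcu had 39.82, 44.36, 40.7 and 41.13 CPM in untreated KO, against 45.3, 46.48, 46.75 and 41.46 CPM in untreated WT libraries. The groups overlapped, and the log2 fold change was −0.12 (SE 0.0534, 95% interval −0.22 to −0.01), which did not pass the adjustment (adjusted p 0.059). It passed without KO replicate 2 (adjusted p 0.0246), without WT replicate 12 (0.0112), and with size factors by relative log expression (0.0459) or upper quartile (0.0293). With H2O2, Mcu had 39.59, 41.34 and 37.8 CPM in KO, against 46.51, 47.69, 42.98 and 43.82 CPM in WT libraries. Here all KO libraries were below all WT libraries, and the log2 fold change was −0.19 (SE 0.0585, adjusted p 0.00498).

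Micu2, a gatekeeper of the pore, was higher in KO cells, by a call that was unstable without treatment. It had 94.2, 110.0, 87.22 and 103.4 CPM in untreated KO, against 91.94, 92.25, 92.94 and 88.79 CPM in untreated WT libraries. One KO library was below all WT libraries, and the log2 fold change was 0.11 (SE 0.0487, adjusted p 0.0487). That call was kept in 2 of 24 alternative settings, and adjusted p was 0.312 without KO replicate 2, 0.141 without KO replicate 4, 0.0697 without WT replicate 9, 0.0695 without 10, 0.0779 without 11 and 0.159 without 12. Leaving out any single library of the H2O2 groups also lost it, with adjusted p 0.0606, 0.0557 and 0.0549 without KO replicates 5, 7 and 8, and 0.0752, 0.0582, 0.0566 and 0.057 without WT replicates 13, 14, 15 and 16. With H2O2, Micu2 had 98.35, 96.88 and 96.38 CPM in KO, against 86.98, 85.04, 87.15 and 85.64 CPM in WT libraries. Those groups were well apart with little spread in each, and the log2 fold change was 0.17 (SE 0.0531, adjusted p 0.00544).

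Smdt1, which encodes the EMRE subunit, had 13.63, 14.03, 14.68 and 16.16 CPM in untreated KO, against 13.5, 12.12, 11.55 and 12.12 CPM in untreated WT libraries. The lowest KO library lay just above the highest WT library, and the log2 fold change was 0.25 (SE 0.0838, adjusted p 0.0105). With H2O2, Smdt1 had 13.27, 13.6 and 13.34 CPM in KO, against 11.64, 12.45, 11.95 and 14.66 CPM in WT libraries. One WT library was the highest of all 7, and the difference did not pass (log2 0.08, 95% interval −0.11 to 0.27, adjusted p 0.443).

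Relative to the pore gene, Micu2 transcripts were more abundant in KO cells, and Smdt1 transcripts were so without treatment. Micu2 per Mcu, as a ratio of RPKM values, was 1.919 ± 0.08211 in H2O2-treated KO and 1.854 ± 0.1309 in untreated KO, against 1.49 ± 0.08238 in H2O2-treated WT and 1.589 ± 0.05717 in untreated WT cells. The ranges did not meet, at 1.829 to 1.99 and 1.673 to 1.963 in the KO groups against 1.392 to 1.583 and 1.549 to 1.671 in the WT groups. Smdt1 per Mcu averaged 1.241 in H2O2-treated KO and 1.293 in untreated KO, against 1.029 in H2O2-treated WT and 1.005 in untreated WT cells. With H2O2 it ranged from 1.204 to 1.292 in KO and from 0.9166 to 1.225 in WT libraries, which overlap. Without treatment it ranged from 1.158 to 1.438 in KO and from 0.9045 to 1.091 in WT libraries, which do not. These ratios describe mRNA only and carry no test.

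Letm1 was lower in KO cells with and without H2O2. It had 36.15, 41.62, 37.91 and 36.59 CPM in untreated KO, against 45.84, 44.42, 43.83 and 43.25 CPM in untreated WT libraries, with no overlap and a log2 fold change of −0.22 (SE 0.0535, adjusted p 0.000728). With H2O2, Letm1 had 38.62, 35.98 and 41.4 CPM in KO, against 43.62, 43.45, 44.47 and 46.27 CPM in WT libraries. All KO libraries were again below all WT libraries, and the log2 fold change was −0.2 (SE 0.0583, adjusted p 0.00332).

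Ppif, encoding cyclophilin D (chromosome 14, 25694154 to 25700468, plus strand, mm10), was the gene with the largest difference of the 9. It had 35.08, 34.23, 36.58 and 30.58 CPM in untreated KO, against 23.83, 24.44, 26.78 and 26.02 CPM in untreated WT libraries. The groups were clear of each other, and the log2 fold change was 0.43 (SE 0.0609, adjusted p 4.41e-07), 1.35-fold. With H2O2, Ppif had 34.31, 35.09 and 31.66 CPM in KO, against 27.94, 28.82, 29.25 and 27.66 CPM in WT libraries. The groups stayed apart, with a log2 fold change of 0.25 (SE 0.0652, adjusted p 0.00155), 1.19-fold. Both calls held in every replicate left out. An annotated antisense gene, Ppifos, shares 921 exon bases with Ppif and had 0 counts.

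Tspo (chromosome 15, 83563592 to 83574203, plus strand, mm10) was lower in KO cells. It had 131.3, 114.4, 136.9 and 132.1 CPM in untreated KO, against 169.4, 158.1, 141.5 and 158.3 CPM in untreated WT libraries. All KO libraries were below all WT libraries, and the log2 fold change was −0.29 (SE 0.0517, adjusted p 3.21e-05). The highest value, 169.4 CPM, came from WT replicate 9, the library with immune transcripts, and without it the log2 fold change was −0.25 (adjusted p 0.000155). Cd68, a lysosomal marker of macrophages that also ran lower in KO cells, had a log2 fold change of −0.47 without and −0.58 with H2O2, and its part in the Tspo result was not tested. With H2O2, Tspo had 137.0, 127.4 and 136.4 CPM in KO, against 149.9, 148.4, 148.0 and 157.3 CPM in WT libraries. The groups did not overlap, and the log2 fold change was −0.18 (SE 0.0562, adjusted p 0.00816), or adjusted p 0.0586 without KO replicate 7.

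Counted by overlap of libraries, 6 of 9 genes were clear of each other between untreated KO and WT cells (Vdac1, Smdt1 and Ppif above, Vdac3, Letm1 and Tspo below), where 58.5% of all tested genes were (29.9% above and 28.5% below). With H2O2 it was 7 of 9 (Micu2 and Ppif above, Vdac2, Vdac3, Mcu, Letm1 and Tspo below), where 66.4% of all tested genes were (33.4% above and 33% below). The counts of the 9 genes were near these background shares. Absolute log2 fold changes of the 9 lay between 0.09 and 0.43 without and between 0.08 and 0.25 with H2O2, where the median over all tested genes was 0.3 and 0.31.

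**Figure D2:**
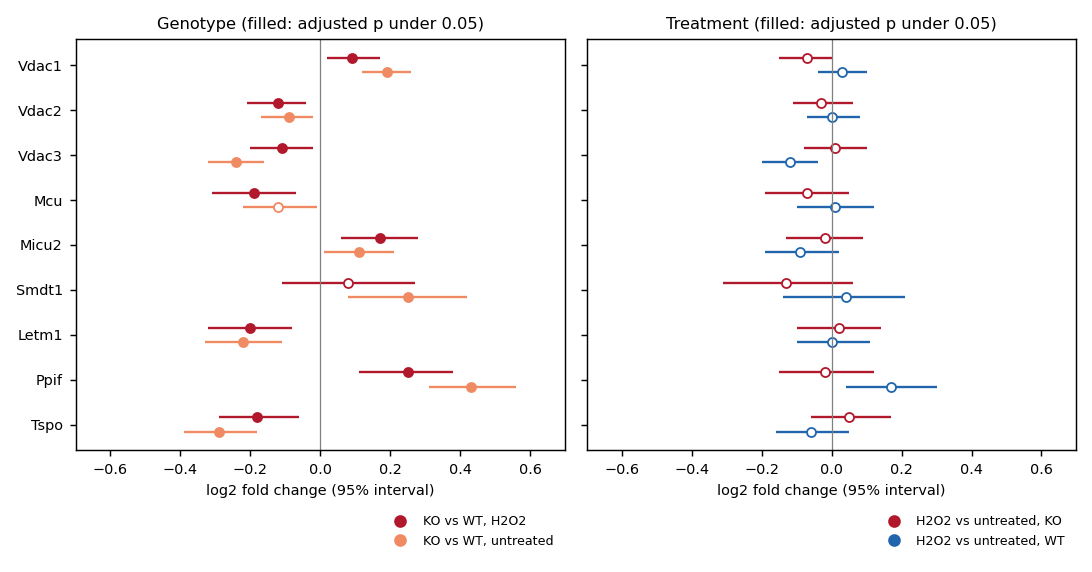
Log2 fold changes (x axis) with 95% intervals of the 9 genes (rows) for KO over WT in H2O2-treated and untreated cells (left) and for H2O2 over untreated in KO and WT cells (right), from edgeR's quasi-likelihood fit. Filled points have an adjusted p under 0.05; 8 of 9 are filled in each genotype comparison and 0 of 9 in each treatment comparison.

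H2O2 at this dose and time called none of the 9 genes in either genotype. In KO cells 0 of 9 passed, where 0.0535% of all tested genes did (7 genes, all lower). In WT cells it was 0 of 9, where 0.0153% did (2 genes, 0.00764% higher and 0.00764% lower). DESeq2, limma-voom and the other settings also called 0 of 9. The 95% intervals of log2 H2O2 over untreated lay between −0.31 (Smdt1) and 0.17 (Tspo) in KO cells and between −0.2 (Vdac3) and 0.3 (Ppif) in WT cells, so larger effects than these were outside the intervals. In WT cells 2 genes had an unadjusted p under 0.05 and failed the adjustment. Vdac3 averaged 157.3 ± 3.964 CPM in H2O2-treated and 171.3 ± 5.092 CPM in untreated WT cells (log2 −0.12, SE 0.0392, p 0.00415, adjusted p 0.53), with all treated libraries below all untreated ones. Ppif averaged 28.42 ± 0.7427 CPM in H2O2-treated and 25.27 ± 1.368 CPM in untreated WT cells (log2 0.17, SE 0.062, p 0.0111, adjusted p 0.646), with all treated libraries above all untreated ones. Micu2 in WT cells was also without overlap, lower with H2O2 (86.2 ± 1.03 against 91.48 ± 1.841 CPM, adjusted p 0.816), which makes 3 of 9 genes in WT cells where 3.81% of all tested genes were without overlap (1.85% higher and 1.96% lower). In KO cells this was 1 of 9 (Smdt1, lower with H2O2), where 7.71% were (3.53% higher and 4.18% lower).

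Whether H2O2 acted differently in KO and WT cells was tested by the interaction term. None of the 9 genes passed, and 0% of all tested genes did by edgeR, with 808 genes at an unadjusted p under 0.05 and 7 called by DESeq2. Unadjusted p was under 0.05 for Vdac3 (log2 difference of the treatment effects, KO minus WT, 0.13, p 0.0301, adjusted p 0.797) and Ppif (−0.19, p 0.0477, adjusted p 0.806). The KO to WT difference of these genes was therefore nearer to 0 with H2O2 in value, without passing the adjusted test.

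Among other genes of mitochondrial calcium exchange, Mcub and Slc25a25 were near 2-fold higher in KO cells. Of 15 listed, all tested, 4 were higher in untreated KO cells, 5 were lower and 6 did not pass (median log2 −0.02). With H2O2 it was 5 higher, 5 lower and 5 not passing (median 0.01). Of all tested genes, 66.8% were called without and 65.4% with H2O2, so the counts of this list were near the background. Mcub, the MCU paralogue that lowers uniporter current when it joins the pore, rose in KO cells. It had 17.46, 18.96, 19.05 and 18.96 CPM in untreated KO, against 10.26, 8.715, 8.0 and 7.144 CPM in untreated WT libraries (log2 1.13, SE 0.0978, adjusted p 4.76e-11, 2.19-fold). With H2O2, Mcub had 18.27, 20.6 and 16.28 CPM in KO, against 9.818, 8.031, 9.205 and 8.046 CPM in WT libraries (log2 1.07, SE 0.105, adjusted p 6.3e-10). The lowest KO library was above the highest WT library in both conditions, and Mcub per Mcu, as a ratio of RPKM values, ran from 0.6908 to 0.7993 in H2O2-treated KO and 0.6856 to 0.7508 in untreated KO, against 0.2701 to 0.3435 in H2O2-treated WT and 0.2745 to 0.3633 in untreated WT libraries.

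Micu3, a paralogue of Micu2, did not pass (log2 −0.16, adjusted p 0.276, and −0.04 with H2O2, adjusted p 0.837). Nor did the assembly factor Mcur1 (log2 −0.02, adjusted p 0.832).

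Slc8b1, Ghitm and Letm2, genes of ion exchange across the inner membrane, were lower in KO cells. Slc8b1, the sodium and calcium exchanger of the inner membrane (NCLX), averaged 100.7 ± 7.157 CPM in untreated KO and 136.9 ± 4.94 CPM in untreated WT cells (log2 −0.44, SE 0.0437, adjusted p 6.63e-10), and −0.54 with H2O2 (adjusted p 9.26e-11). Ghitm, an inner-membrane protein of cation and proton exchange (TMBIM5), averaged 581.1 ± 18.07 against 737.4 ± 23.99 CPM in the same groups (log2 −0.34, SE 0.034, adjusted p 6.76e-10). Letm2, a paralogue of Letm1 at low level, averaged 1.37 ± 0.5491 against 2.653 ± 0.4375 CPM (log2 −0.95, adjusted p 0.00388). With H2O2 its log2 was −0.71 (adjusted p 0.0405), and −0.36 (adjusted p 0.272) without KO replicate 8. The H2O2 call was also lost without KO replicate 5 (adjusted p 0.0945) and with non-robust dispersion (0.0511). It was lost as well without WT replicate 13 (0.0544), 14 (0.0674), 15 (0.0714) or 16 (0.0626). The H2O2 groups overlapped, with KO up to 2.403 and WT from 2.392 CPM of Letm2. Letmd1, a LETM1-domain protein, was higher (log2 0.22, adjusted p 0.00099, and 0.17 with H2O2, adjusted p 0.0168, or 0.11 and adjusted p 0.167 without KO replicate 7).

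Calcium-regulated carriers and the proteases that process EMRE went both ways. Slc25a25, an ATP-Mg and phosphate carrier, averaged 21.5 ± 4.16 CPM in untreated KO and 10.8 ± 0.2466 CPM in untreated WT cells (log2 0.99, SE 0.105, adjusted p 1.11e-08). Its relative Slc25a23 was nearly silent in KO cells, with 6 counts over the 4 untreated KO and 112 over the 4 untreated WT libraries (log2 −4.1, adjusted p 1.7e-08). Of those 6 counts 5 came from KO replicate 3, and without it the fitted log2 was −5.9 (adjusted p 2.16e-09). Slc25a24 did not pass (log2 −0.02, adjusted p 0.783). Of the aspartate and glutamate carriers, Slc25a12 was lower (log2 −0.28, adjusted p 3.44e-05) and Slc25a13 did not pass (log2 0.0, adjusted p 0.973). The protease gene Spg7 was higher (log2 0.23, adjusted p 5.83e-05), its partner Afg3l2 did not pass (log2 0.03, adjusted p 0.522), and Maip1, which binds them, passed with H2O2 alone (log2 0.25, adjusted p 0.0289). The Maip1 call was lost with DESeq2 and without KO replicate 5, 7 or 8 or WT replicate 13 or 16 (adjusted p 0.0603, 0.0768, 0.0517, 0.122 and 0.083).

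**Figure D3:**
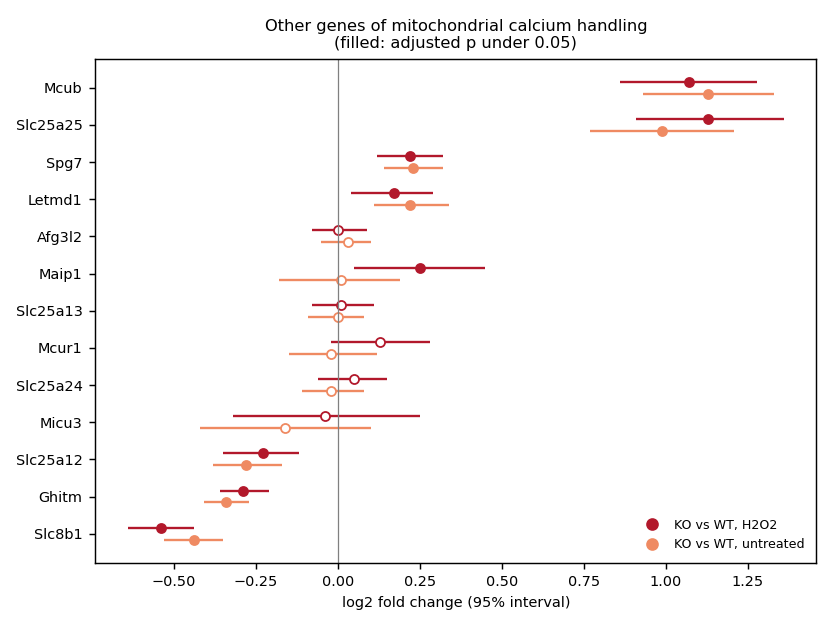
Log2 fold changes (x axis) with 95% intervals of 13 of the 15 listed calcium exchange genes (rows) for KO over WT in H2O2-treated (dark) and untreated (light) cells, from edgeR's quasi-likelihood fit, where filled points have an adjusted p under 0.05. Mcub lies at 1.07 and 1.13 and Slc8b1 at −0.54 and −0.44; Letm2 and Slc25a23 are left out for their low level.

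**Figure D4:**
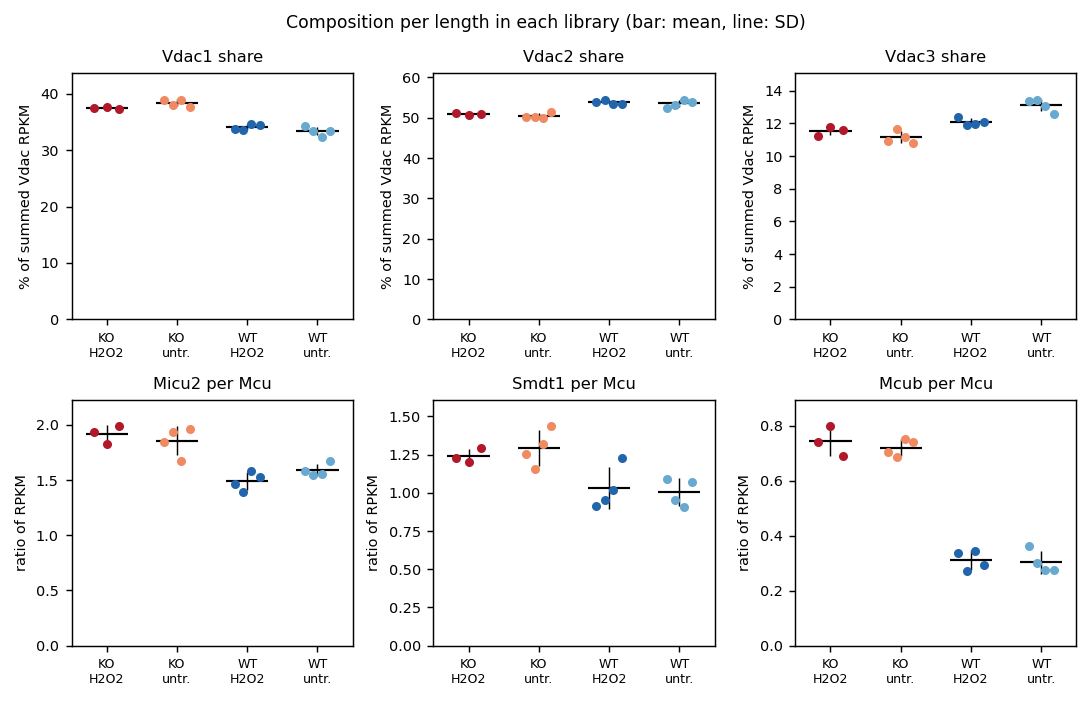
Shares of summed VDAC RPKM taken by Vdac1, Vdac2 and Vdac3 (percent, y axis) and RPKM ratios of Micu2, Smdt1 and Mcub to Mcu, per library (points) with mean and SD, by group from left to right: H2O2-treated KO (n = 3), untreated KO, H2O2-treated WT and untreated WT (n = 4 each). Mcub per Mcu averages 0.7198 in untreated KO and 0.3037 in untreated WT libraries.

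At contacts between the endoplasmic reticulum and mitochondria, 3 of 15 tested genes were higher in untreated KO cells and 5 lower (median log2 −0.05), with the same counts under H2O2. The share called over all tested genes was 66.8% without and 65.4% with H2O2. Itpr1, an IP3 receptor channel that releases calcium toward VDAC1, had 154.6 ± 9.585 CPM in untreated KO, against 98.21 ± 2.195 CPM in untreated WT cells (log2 0.65, SE 0.0425, adjusted p 1.03e-13). The other IP3 receptor genes, named after their values were seen, did not pass. These were Itpr2 (log2 −0.01, adjusted p 0.929) and the more abundant Itpr3 (478.4 against 494.4 CPM, log2 −0.05, adjusted p 0.408). Vapb, a tether of the endoplasmic reticulum, was higher (log2 0.28, adjusted p 1.61e-06). Pacs2, a sorting protein needed for these contacts, fell to 117.5 ± 12.83 CPM against 176.7 ± 7.965 CPM (log2 −0.59, adjusted p 9e-10), and the mitophagy receptor Fundc1 was lower (log2 −0.52, adjusted p 2.9e-08).

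Among partners of VDAC, 10 of 14 listed genes were tested, and 4 were higher and 4 lower in untreated KO cells (median log2 0.07), with 5 higher and 4 lower under H2O2. The background over all tested genes was 66.8% called without and 65.4% with H2O2. The ADP/ATP carriers of the inner membrane rose. Slc25a4 averaged 459.2 ± 14.57 CPM in untreated KO and 290.0 ± 7.485 CPM in untreated WT cells (log2 0.66, SE 0.0364, adjusted p 2.34e-15), and Slc25a5 449.7 ± 33.8 against 296.0 ± 6.498 CPM (log2 0.6, adjusted p 9.62e-13). The pore-forming apoptosis effectors fell, Bax with 85.99 ± 10.22 against 112.2 ± 7.887 CPM (log2 −0.38, SE 0.0737, adjusted p 0.000247) and Bak1 with 54.12 ± 2.207 against 66.89 ± 3.925 CPM (log2 −0.3, SE 0.0505, adjusted p 5.82e-06). The Bax groups overlapped, with KO up to 100.8 and WT from 100.7 CPM. In the test for a change over 1.2-fold, neither Bax (adjusted p 0.0503) nor Bak1 (0.177) passed without H2O2. Both passed that test with H2O2 (adjusted p 0.0105 and 0.0186). Bcl2l1 was also lower (log2 −0.18, adjusted p 0.000198) and Mcl1 did not pass (log2 −0.03, adjusted p 0.551), both named after their values were seen. Of the hexokinases that dock on VDAC, named after their values were seen, Hk1 was lower (log2 −0.25, adjusted p 1.02e-06) and Hk2 higher (log2 0.2, adjusted p 3.77e-05).

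Of 12 other cyclophilins 8 were higher in untreated KO cells and 3 lower (median log2 0.26), and under H2O2 it was 7 and 3 (median 0.18). Over all tested genes 33.9% were higher and 32.9% lower without H2O2, and 33% and 32.4% with it. The same list held 2 mitochondrial partners of cyclophilin D, of which the chaperone Trap1 was higher (log2 0.56, adjusted p 5.02e-13) and the ATP synthase subunit Atp5o did not pass (log2 −0.05, adjusted p 0.299), both named after their values were seen. Ppic, a cyclophilin of the secretory pathway, averaged 112.7 ± 6.601 CPM in untreated KO and 46.09 ± 1.453 CPM in untreated WT cells (log2 1.29, adjusted p 1.38e-19), and Ppil1, of the spliceosome, was also higher (log2 0.62, adjusted p 9.92e-10). Ppib, the cyclophilin of the endoplasmic reticulum, averaged 695.3 ± 38.21 against 914.9 ± 22.41 CPM (log2 −0.4, adjusted p 2.96e-10), and Ppil3 was lower (log2 −0.29, adjusted p 0.00192).

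In the list of TSPO ligands and steroid genes, 9 of 10 were tested, with 4 higher and 3 lower in both conditions (median log2 0.06 without and 0.01 with H2O2). The all-gene share called was 66.8% without and 65.4% with H2O2. Cyp11a1, the mitochondrial side-chain cleavage enzyme that starts steroid synthesis, averaged 61.3 ± 4.892 CPM in untreated KO and 0.5065 ± 0.2514 CPM in untreated WT cells (log2 6.89, SE 0.128, adjusted p 3.59e-26). Dbi, the acyl-CoA binding protein that is a TSPO ligand, averaged 203.0 ± 8.153 against 150.7 ± 6.232 CPM (log2 0.43, adjusted p 6.23e-10). The heme oxygenase Hmox1 (log2 −0.7, adjusted p 1.47e-10) and the cholesterol transfer protein Stard4 (log2 −0.55, adjusted p 3.63e-07) were lower.

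Outside mitochondria, a list of calcium pumps, store-operated calcium entry genes (Stim and Orai genes) and the buffer gene Calr mostly did not pass. In untreated KO cells 2 were higher, 2 lower and 7 not passing of 11 tested (median log2 0.02), and 3, 1 and 7 under H2O2. The plasma membrane pump Atp2b1 was higher (log2 0.45, adjusted p 1.3e-11), and the endoplasmic reticulum pump Atp2a3 (log2 −0.66, adjusted p 0.000662) and the calcium buffer calreticulin, Calr (log2 −0.52, adjusted p 5.82e-13), were lower. For Atp2a3, WT replicate 9 was the highest library at 15.73 CPM, the log2 fold change was −0.49 without it (adjusted p 0.00138), and with H2O2 it was −0.26 and did not pass (adjusted p 0.184). In a list of 13 common markers of mitochondria, from the outer membrane to the matrix, 7 were higher in untreated KO cells and 2 lower (median log2 0.17), and 6 were higher and 1 lower under H2O2 (median 0.1). Beside this list and that of the calcium pumps, 66.8% of all tested genes were called without and 65.4% with H2O2. The import channel Tomm40 (log2 0.49, adjusted p 5.4e-09) and the chaperonin Hspd1 (log2 0.48, adjusted p 2.23e-11) were higher, whereas Samm50 (log2 −0.1, adjusted p 0.0239) and Tomm22 (log2 −0.12, adjusted p 0.0176) were slightly lower. Citrate synthase, Cs (log2 −0.04, adjusted p 0.344), and the cristae protein gene Immt (log2 −0.01, adjusted p 0.882), named after their values were seen, did not pass. The Tomm22 call was lost without WT replicate 9 (adjusted p 0.0616), and the Samm50 call without KO replicate 1 (0.052) or WT replicate 12 (0.0569). H2O2 called 0 genes of these lists in either genotype.

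Across the 15 libraries, the 5 genes most like Ppif in log2 CPM were Sf3b2 (Pearson r 0.965), Kri1 (0.962), Ddx17 (0.958), Zfp384 (0.955) and Gsdmd (0.955). The libraries fall into 2 genotypes, so these values mostly describe the genotype difference and are given with no test.

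Counting could touch a few of the 9 genes. Near-identical copies were pseudogenes of Vdac1, Vdac2 and Vdac3, which together had 1, 45 and 182 counts against 69280, 75856 and 33888 counts of the genes themselves. Vdac2 shares 25 exon bases with Comtd1 and Tspo 53 with Mcat, both on the opposite strand, and Smdt1 shares 245 with Pheta2 on the same strand, which had 11 counts. The libraries were made with a stranded kit, and the strand setting of the counting is not given in the sources used here.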

How the data were processed

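Expected counts for each gene symbol were deposited by the authors. Cutadapt, STAR, RSEM and build mm10 are listed in the submitters' processing notes, without versions or settings. The values are whole numbers as deposited. The deposited RPKM table scales the same counts by gene length and library size. Counts were tested with edgeR 4.0.16 (R 4.3.3): filterByExpr left 13085 genes with 99.917% of counts, libraries were scaled by TMM, and 1 robust quasi-likelihood model of 4 group means was fitted (11 residual degrees of freedom). P-values were adjusted by Benjamini-Hochberg over all tested genes, with a threshold of 0.05. The SE is approximate, from the log2 fold change and its F statistic. A common biological coefficient of variation of 4.96% sets the precision of small differences. Replicates differed by more than sampling noise (chi-square per degree of freedom 2.02 to 7.63 over 21 pairs).

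The alternatives were DESeq2 1.42.0, limma-voom 3.58.1, other scalings and filters, a test for over 1.2-fold, and each library left out. Genes outside the 9 were named by rule: all calcium exchange genes, and from each other list 2 called genes from each end of the log2 fold changes in untreated KO against WT, at a mean of 5 CPM or more in the higher group. The genes most like Ppif used a prior count of 2. A further gene of the calcium exchange list is not reported here and is left out of its counts. The members and lists were chosen with earlier results of these data known. Near copies were found with BLAST 2.17.0 over annotated transcripts (at least 90% identity over 200 bases), and gene positions came from GENCODE. Replicate 9 was kept as WT. On simulated counts of the untreated comparison (12855 genes) the test recovered 41.8% of genes changed 1.2-fold, 77.3% at 1.5-fold and 93.9% at 2-fold. Only 67, 66 and 66 genes were changed at these folds, whereas 66.8% of tested genes were called in the data. The adjustment was therefore stricter in the simulation, and these rates do not give the power of the tests above.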

Additional observations from a re-analysis of the deposited data

Results flagged for a closer look

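In groups of 4 libraries, 1 library stood far from the other 3 in 7 of 141 groups examined over 48 genes, and chance alone gives about 1 in 20. Vdac2 was the only one of the 9 genes among them, with 350.9 CPM in H2O2-treated WT replicate 16, against 362.2 to 364.0 CPM in the other 3. Mcub had 17.46 CPM in untreated KO replicate 1, against 18.96 to 19.05 CPM. Spg7 had 118.3 CPM in untreated KO replicate 3, against 103.1 to 105.2 CPM. Slc25a12 had 54.41 CPM in untreated WT replicate 10, against 48.86 to 49.75 CPM. Bax had 129.2 CPM in H2O2-treated WT replicate 16, against 110.8 to 113.6 CPM. Ppic had 36.73 CPM in H2O2-treated WT replicate 14, against 40.3 to 40.97 CPM, and 48.27 CPM in untreated WT replicate 9, against 45.2 to 45.48 CPM. Groups of 3 libraries were not examined in this way.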

How the results depend on the processing

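No paired analysis was possible because the replicate numbers, 1 to 16, are not shared between the groups. No difference of the 9 genes changed sign where it was called. The count of the 9 genes called between genotypes was 8 in both conditions, 1 without and 0 with H2O2 when a change over 1.2-fold was asked for, and 6 to 8 in both with 1 library left out. The counts of all genes were 8746 without and 8558 with H2O2, 4818 and 4842 for a change over 1.2-fold, and 8399 to 8773 and 7965 to 8639 with 1 library left out. Over 1.2-fold, 6 of 15 calcium exchange genes passed without and 4 with H2O2, and 4 and 4 of 15 contact genes. It was 2 and 4 of 10 VDAC partners, 6 and 7 of 14 in the cyclophilin list and 6 and 4 of 9 in the TSPO list. The calcium pump list had 4 and 3 of 11 and the mitochondrial markers 4 and 5 of 13, against 36.8% and 37% of all genes. H2O2 called 7 genes in KO cells (38 by DESeq2, 27 with no low-count filter, 0 over 1.2-fold, 0 to 21 with 1 library left out) and 2 in WT cells (9 by DESeq2, 12 with no low-count filter, 0 by limma-voom, with non-robust dispersion, over 1.2-fold or with only the groups compared, 0 to 13 with 1 library left out). The interaction called 0 genes (7 by DESeq2, 3 by limma-voom, 5 with no low-count filter, 3 with non-robust dispersion, 0 to 3 with 1 library left out). H2O2 and the interaction called 0 of the 9 genes in all of these, 0 to 0 with 1 library left out. On CPM in place of RPKM, which ignores length, the shares in H2O2-treated KO, untreated KO, H2O2-treated WT and untreated WT cells were 40.6, 41.6, 37.1 and 36.1% for Vdac1, 41.2, 40.8, 43.7 and 43.3% for Vdac2, and 18.2, 17.5, 19.1 and 20.6% for Vdac3. Other scalings moved the median of all genes by at most 0.02 on the log2 scale in size. Outside the 9 genes, Letmd1, Spg7, Slc25a12, Vapb, Bax, Bak1, Bcl2l1, Hk1, Hk2, Ppil3, Tomm22 and Samm50 were called in untreated cells. None of these passed there when a change over 1.2-fold was asked for.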
